A study of Homo sapiens with 6 samples.

Results

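Interferon-stimulated genes were examined in 8505C cells, an established human cell line of anaplastic thyroid cancer, after silencing of POLR1F, a subunit of the RNA polymerase I that transcribes ribosomal RNA genes. The members were 38 gene names, looked up in the deposited table of 33539 genes. Of these, 37 had a row, and RSAD2 was not analysed here. Poly(A) RNA was sequenced from 3 libraries of cells given a negative control siRNA (NC) and 3 libraries of cells given an siRNA against POLR1F (siPOLR1F), each for 24 h, in medium with serum. No interferon, virus or other inducer is named for either group. The levels are those of transfected cells, and whether transfection or an siRNA itself induced these genes was not tested. Each group carries its own siRNA, so an effect of the siRNA sequence and the loss of POLR1F cannot be told apart. Nothing in the labels states that the 3 replicates of either group were separate cultures, so each p-value covers the spread among these libraries only, and that spread may be technical. All libraries came from 1 cell line.

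Type I interferons are secreted proteins that bind a receptor on the cell surface and activate the kinases JAK1 and TYK2. These phosphorylate STAT2, which together with IRF9 is part of the complex ISGF3. ISGF3 enters the nucleus and binds a promoter element, the interferon-stimulated response element (ISRE), of genes whose products sense foreign RNA, block translation, degrade RNA or tag proteins with ISG15. Many of these genes are also transcribed at a low level without added interferon, and some respond directly to the factors IRF1, IRF3 and IRF7.

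The promoters of 4 genes described below as lower, and that of ISG15, carry the core letters of this element. The core was searched as GAAA, any 2 bases and GAAA on both strands in the RefSeq promoter window of 300 bases (250 before to 50 after the annotated start; GRCh38.p14), and matches are in capitals. Read from the other strand it is TTTC, any 2 bases and TTTC. The sequences are shown 5′ to 3′ on the strand of the gene, and the ISG15 promoter stands beside them as that of a member that did not pass the test.
IFIT1, chr10:89392373-89392672, plus strand: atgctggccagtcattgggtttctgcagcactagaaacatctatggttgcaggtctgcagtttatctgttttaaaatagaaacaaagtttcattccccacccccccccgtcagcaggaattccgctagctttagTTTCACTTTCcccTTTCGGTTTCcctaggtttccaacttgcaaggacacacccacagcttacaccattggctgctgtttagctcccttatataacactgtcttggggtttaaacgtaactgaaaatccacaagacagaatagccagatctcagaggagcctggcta
IFIT3, chr10:89327747-89328046, plus strand: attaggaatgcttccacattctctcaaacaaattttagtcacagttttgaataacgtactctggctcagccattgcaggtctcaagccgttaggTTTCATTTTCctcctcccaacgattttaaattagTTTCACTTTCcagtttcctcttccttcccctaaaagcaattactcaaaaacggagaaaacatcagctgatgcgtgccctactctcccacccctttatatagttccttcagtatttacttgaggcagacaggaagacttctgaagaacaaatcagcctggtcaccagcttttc
IFIT5, chr10:89414318-89414617, plus strand: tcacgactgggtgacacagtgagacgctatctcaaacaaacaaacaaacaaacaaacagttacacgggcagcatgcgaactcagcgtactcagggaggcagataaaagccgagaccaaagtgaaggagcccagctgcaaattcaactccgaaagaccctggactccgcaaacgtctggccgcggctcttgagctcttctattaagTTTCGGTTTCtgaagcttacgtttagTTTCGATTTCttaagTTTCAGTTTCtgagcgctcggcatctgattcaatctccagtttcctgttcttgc
OAS3, chr12:112938224-112938523, plus strand: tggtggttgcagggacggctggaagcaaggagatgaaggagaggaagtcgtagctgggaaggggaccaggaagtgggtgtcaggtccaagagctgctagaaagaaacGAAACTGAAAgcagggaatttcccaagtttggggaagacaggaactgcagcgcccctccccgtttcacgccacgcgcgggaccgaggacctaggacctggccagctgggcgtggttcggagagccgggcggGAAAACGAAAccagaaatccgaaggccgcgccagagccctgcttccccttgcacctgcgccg
ISG15, chr1:1013247-1013546, plus strand: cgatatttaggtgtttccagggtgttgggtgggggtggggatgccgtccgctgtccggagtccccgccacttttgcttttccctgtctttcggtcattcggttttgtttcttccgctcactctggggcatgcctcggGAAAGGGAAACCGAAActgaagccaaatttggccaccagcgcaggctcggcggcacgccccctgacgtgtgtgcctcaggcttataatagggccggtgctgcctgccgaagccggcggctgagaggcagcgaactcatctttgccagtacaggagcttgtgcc
IFIT1 and IFIT3 each held 2 matches, beginning at -116 and -103 bases from the start in IFIT1 and at -156 and -122 in IFIT3, IFIT5 held 3, at -45, -19 and -4, and OAS3 held 2, at -143 and -12. In ISG15 a pair of matches overlapped. No match was found in the window of PARP9, another lower member, while that of its neighbour DTX3L held 1, at -6. The PARP9 window (chr3:122564735-122565034, minus strand) lies wholly before the PARP9 model of the gene table, which begins at 122564577. It therefore does not cover that start. The windows of IFIT3, OAS3 and ISG15 do not cover the starts of their models in the gene table either. These models begin at 89327307, 112938051 and 1001138, before the windows. The windows of IFIT1 and IFIT5 cover the starts of their models.

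Among tested members the largest differences between the groups were those of IFIT1, IFIT3 and IFIT2, of the IFIT family, whose products bind viral RNA and limit its translation. All 4 IFIT genes were lower in siPOLR1F: IFIT1 fell by 62.3%, IFIT3 fell by 55.1%, IFIT2 fell by 51.9% and IFIT5 fell by 24.4%. In bulk RNA, fewer cells that express a gene and less RNA per cell cannot be told apart. Of the 27 members with a mean of at least 0.5 FPKM (fragments scaled to transcript length and library depth, the unit of level used here), 6 were lower, 0 were higher and 21 did not pass the test. The test was edgeR's quasi-likelihood test on the counts with Benjamini-Hochberg adjustment over all 13564 genes tested, at an adjusted p below 0.05. Of all genes tested, 6.94% were lower and 10.3% were higher by this rule, against 22.2% of tested members lower. The members were chosen with earlier results of these data known. This share and the later shares of members set beside all genes are therefore no independent comparisons. Beside the IFIT genes, OAS3 and PARP9 were lower, and outside the IFIT family the count was 2 of 23 (8.70%). DESeq2 also called 6 members lower and 0 higher, where it called 9.92% of all genes tested lower and 13.1% higher. At an unadjusted p below 0.05 in edgeR, 0 members were higher, against 17.6% of all genes tested.

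**Figure D1:**
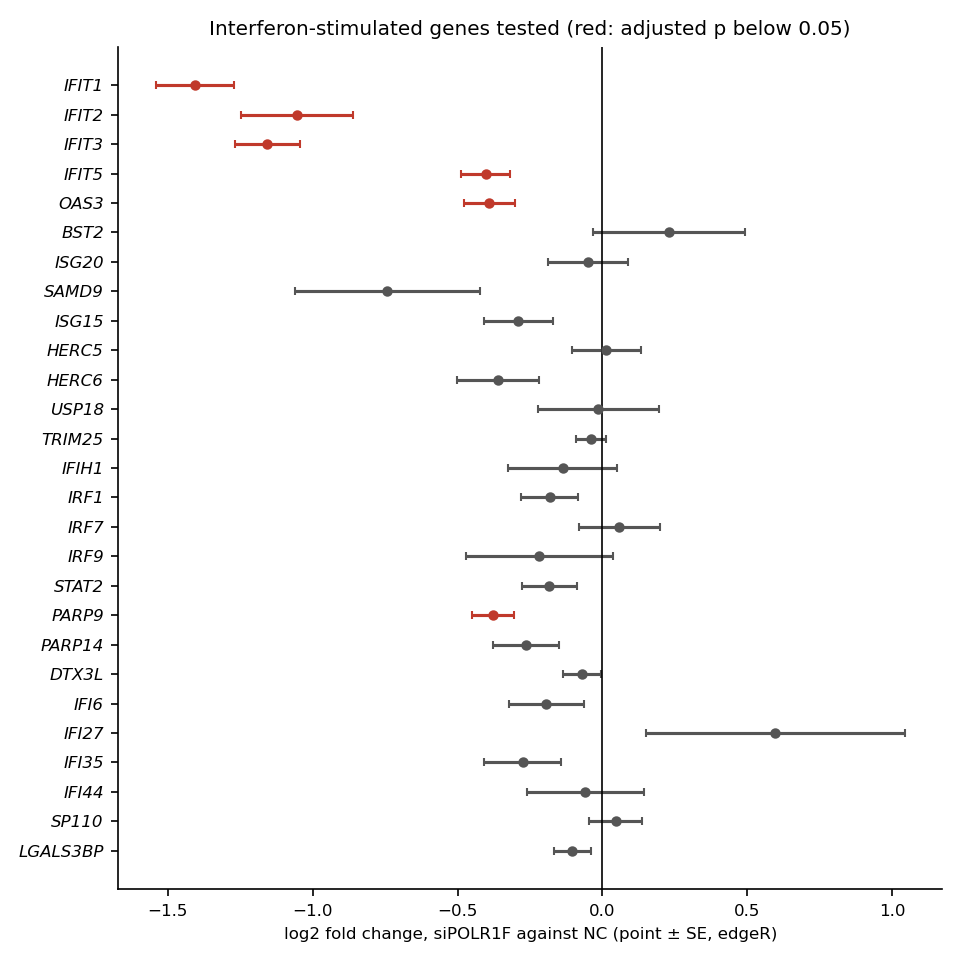
The log2 fold change of each tested member (x axis, siPOLR1F against NC, with the SE as a bar), with members called lower in red. IFIT1, IFIT2 and IFIT3 lie below -1, and IFI27, at 0.60, has the widest bar.

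POLR1F itself (ENSG00000105849) was at 8.80, 8.42 and 7.64 FPKM in NC replicates 1, 2 and 3 and at 2.09, 1.42 and 1.51 FPKM in siPOLR1F replicates 1, 2 and 3. Its log2 fold change was -2.30 (SE 0.15; edgeR adjusted p = 9.76e-05). Library totals lay between 60576788 and 63038378 counts, with normalization factors from 0.986 to 1.00. Of the thyroid markers, NKX2-1 was at 41.8 to 47.2 FPKM in NC and 25.7 to 28.8 FPKM in siPOLR1F (log2 fold change -0.71, SE 0.07; edgeR adjusted p = 4.35e-04). PAX8 was at 0.777, 0.596 and 0.256 FPKM in NC and at 0.608, 0.648 and 0.218 FPKM in siPOLR1F. FOXE1 had 80, 66 and 7 counts in NC and 69, 79 and 0 counts in siPOLR1F, so both were lowest in replicate 3 of each group. TG, TSHR and SLC5A5 had 10 counts or fewer in each library. Of the epithelial markers, the keratins KRT8 and KRT18 were at 92.8 FPKM or more in each library, EPCAM was at 0.538 to 1.05 FPKM and CDH1 had at most 22 counts. KRT8 was lower in siPOLR1F (log2 fold change -0.25, SE 0.06; edgeR adjusted p = 0.0197), and the part of these lineage markers in the members' values was not tested. The leukocyte gene PTPRC had at most 11 counts, CD14 and LYZ were at 1.38 to 3.25 FPKM, and the fibroblast genes were at most at 0.556 FPKM. Of the endothelial markers CDH5 was present in each library, at 5.43 to 5.88 FPKM in NC, and VWF and PECAM1 varied between libraries, as described below.

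IFIT1 (ENSG00000185745, GRCh38 chromosome 10, 89392546 to 89406487, plus strand) encodes a protein that recognizes the cap structure of foreign RNA. Its level was 2.22, 2.04 and 2.37 FPKM in NC replicates 1, 2 and 3 and 0.762, 0.802 and 0.922 FPKM in siPOLR1F replicates 1, 2 and 3. Each siPOLR1F library was below each NC library, with counts of 636 to 762 in NC and 244 to 296 in siPOLR1F. The log2 fold change was -1.41 (SE 0.14; edgeR adjusted p = 4.93e-04).

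IFIT3 (ENSG00000119917, chromosome 10) stabilizes IFIT1 and was the more abundant of the pair. It was at 3.80, 3.40 and 3.76 FPKM in the NC libraries and at 1.44, 1.83 and 1.61 FPKM in the siPOLR1F libraries, in replicate order. The groups were again apart, and the log2 fold change was -1.16 (SE 0.11; edgeR adjusted p = 4.95e-04).

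IFIT2 (ENSG00000119922, chromosome 10) lies next to IFIT3 and encodes another partner of IFIT1 and IFIT3. It was at 1.67, 1.15 and 1.13 FPKM in NC and at 0.664, 0.633 and 0.587 FPKM in siPOLR1F, in replicate order. NC replicate 1 stood above the other NC libraries, and the siPOLR1F libraries lay close together below them. The log2 fold change was -1.06 (SE 0.19; edgeR adjusted p = 0.00885), and -0.85 without NC replicate 1.

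IFIT5 (ENSG00000152778, chromosome 10), which binds RNA with a triphosphate end, was the most abundant gene of the family and differed least. Its level was 6.55, 6.95 and 6.37 FPKM in NC and 5.42, 4.99 and 4.54 FPKM in siPOLR1F, with no overlap. The log2 fold change was -0.40 (SE 0.09; edgeR adjusted p = 0.0153). This call ended without siPOLR1F replicate 2 (edgeR adjusted p = 0.0509) or replicate 3 (0.0561). It also ended in a fit without a filter on low values (edgeR adjusted p = 0.0622). The lowest adjusted p over the alternatives was 8.04e-04, with DESeq2.

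**Figure D2:**
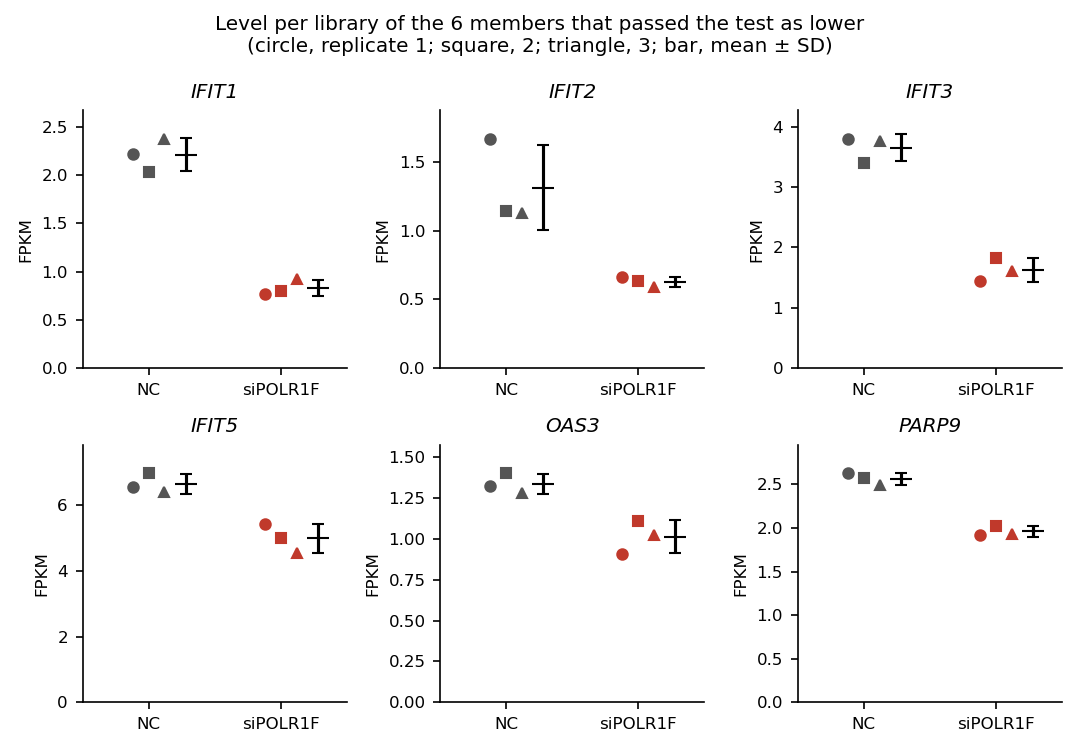
FPKM per library (y axis, from 0) of the 6 members called lower, with the mean ± SD of 3 libraries beside the points. In every panel the 3 siPOLR1F points (red) lie below the 3 NC points (grey), and the siPOLR1F mean as a share of the NC mean is smaller in IFIT1, IFIT2 and IFIT3 than in IFIT5, OAS3 and PARP9.

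The 4 IFIT genes lie in 1 row on chromosome 10, all on the plus strand, in the order IFIT2, IFIT3, IFIT1 and IFIT5. To compare them within a library, the log2 ratio of their counts was taken. The ratio of IFIT1 to IFIT5 was -1.51 ± 0.17 in NC and -2.51 ± 0.27 in siPOLR1F (SD, n = 3 each; exact two-sided permutation test, p = 0.1). That of IFIT3 to IFIT5 was -0.64 ± 0.15 and -1.40 ± 0.26, that of IFIT2 to IFIT5 was -2.37 ± 0.34 and -2.99 ± 0.04, and that of IFIT1 to IFIT3 was -0.86 ± 0.06 and -1.11 ± 0.20. In all of these the groups did not overlap, and every exact permutation p stood at 0.1, the lowest value open to a comparison of 3 with 3 libraries (0.1 also after adjustment over the 5 ratios computed). The ratios use the same counts as the fold changes above and are no separate support for them. The share of other gene pairs without overlap is not given here.

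LIPA, which encodes the acid lipase of lysosomes, runs on the minus strand across IFIT2, IFIT3 and IFIT1 in the table and begins just before IFIT5. Its level was 19.2, 17.1 and 20.3 FPKM in NC and 10.8, 12.5 and 13.5 FPKM in siPOLR1F, and its log2 fold change was -0.62 (SE 0.09; edgeR adjusted p = 0.00377). LIPA had between 3659 and 6893 counts per library, more than any of the IFIT genes. The log2 fold change of LIPA lay between that of IFIT5, which lies outside it, and those of the IFIT genes it overlaps. Without a stated strand setting, reads of LIPA and of IFIT1, IFIT2 and IFIT3 cannot be told apart where they overlap. The part of LIPA in the IFIT values was not tested.

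Of the OAS family, which makes short oligoadenylates when it binds double-stranded RNA, only OAS3 was abundant enough to be tested. OAS3 (ENSG00000111331, chromosome 12) was at 1.32, 1.40 and 1.28 FPKM in NC and at 0.905, 1.11 and 1.02 FPKM in siPOLR1F. All siPOLR1F libraries were below all NC libraries, and the log2 fold change was -0.39 (SE 0.09; edgeR adjusted p = 0.0206). It did not pass without NC replicate 2 (adjusted p = 0.0544), siPOLR1F replicate 1 (0.0645) or siPOLR1F replicate 3 (0.0664), or with limma on log2(FPKM + 1) (0.0837), within a range of 0.00202 to 0.288 over all alternatives.

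OAS1, which lies 4831 bases before OAS3, had 154, 190 and 192 counts in NC and 96, 119 and 129 counts in siPOLR1F. The groups did not overlap here either, but in a fit without a filter on low values OAS1 had an edgeR adjusted p of 0.170. OAS2, 5143 bases beyond OAS3, had 51, 106 and 23 counts in NC and 91, 78 and 14 counts in siPOLR1F, with no separation of the groups. OASL, a relative that makes no oligoadenylate, had 39 to 70 counts in NC and 32 to 62 counts in siPOLR1F.

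PARP9 (ENSG00000138496, chromosome 3), a partner of the ubiquitin ligase DTX3L, was at 2.63, 2.57 and 2.49 FPKM in NC and at 1.92, 2.03 and 1.94 FPKM in siPOLR1F. The libraries of each group lay close together, and the groups were apart. The log2 fold change was -0.38 (SE 0.07; edgeR adjusted p = 0.00972), and PARP9 passed without each library in turn.

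DTX3L starts on the opposite strand of the same locus, and the table's gene models share 240 bases at their starts. It was at 7.96, 7.32 and 7.87 FPKM in NC and at 7.43, 7.35 and 7.17 FPKM in siPOLR1F, and the groups overlapped. Its log2 fold change was -0.07 (SE 0.07; edgeR adjusted p = 0.494). Within libraries the log2 ratio of PARP9 to DTX3L counts was -0.96 ± 0.08 in NC and -1.26 ± 0.05 in siPOLR1F (SD, n = 3 each), with no overlap (exact two-sided permutation test, p = 0.1, the smallest possible). The ratio uses the same counts as the fold changes of PARP9 and DTX3L and is no separate support for them. PARP14, a further ADP-ribosyltransferase of this region, was at 4.95, 3.70 and 4.03 FPKM in NC and at 3.73, 3.51 and 3.28 FPKM in siPOLR1F, and did not pass (log2 fold change -0.26, SE 0.11; edgeR adjusted p = 0.146).

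The genes of the ISG15 system, in which a ubiquitin-like protein is attached to other proteins, did not pass the test in any of 5 cases. ISG15 itself was at 8.87, 9.59 and 9.96 FPKM in NC and at 7.26, 8.22 and 7.64 FPKM in siPOLR1F. Every siPOLR1F library was below every NC library, the log2 fold change was -0.29 (SE 0.12; edgeR adjusted p = 0.128), and limma on log2(FPKM + 1) gave an adjusted p of 0.0352 (0.0352 to 0.518 over all alternatives). The ISG15 ligase HERC5 was at 1.59 ± 0.107 FPKM (NC) and 1.60 ± 0.0922 FPKM (siPOLR1F; SD, n = 3 each), and its neighbour HERC6 at 1.12 ± 0.0636 and 0.869 ± 0.0993, without overlap (edgeR adjusted p = 0.116). USP18, which removes ISG15, was at 0.437 to 0.669 FPKM in NC and 0.503 to 0.654 FPKM in siPOLR1F. TRIM25, a ubiquitin ligase that acts on the RNA sensor RIG-I, was the second most abundant member. It was at 11.7, 12.8 and 12.4 FPKM in NC and at 11.7, 11.9 and 12.0 FPKM in siPOLR1F, and its log2 fold change was -0.04 (SE 0.05; edgeR adjusted p = 0.629).

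None of the 4 transcription factors among the members passed. STAT2, a subunit of ISGF3, was at 3.34, 3.34 and 3.75 FPKM in NC and at 2.69, 3.39 and 3.06 FPKM in siPOLR1F, and the groups overlapped (log2 fold change -0.18, SE 0.09; edgeR adjusted p = 0.214). IRF9, the subunit that binds DNA, was at 0.734, 0.356 and 0.702 FPKM in NC and at 0.504, 0.491 and 0.516 FPKM in siPOLR1F. NC replicate 2 was the lowest of all libraries for IRF9. Another gene of the table overlaps IRF9 by 5219 bases on the same strand. It had 1444, 3403 and 2715 counts in NC and 1599, 2447 and 2085 counts in siPOLR1F, in replicate order. IRF9 had 345, 165 and 322 counts in NC, and the part of this overlap in its values was not tested. IRF1 was at 1.10 ± 0.0756 FPKM (NC) and 0.963 ± 0.0560 FPKM (siPOLR1F), and IRF7 at 1.82 ± 0.0271 and 1.88 ± 0.181 (SD, n = 3 each; edgeR adjusted p = 0.239 and 0.809).

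The most abundant member was LGALS3BP, a secreted protein that binds galectins, which gave between 33.4% and 38.4% of the counts of all 37 members. It was at 80.9, 82.7 and 90.9 FPKM in NC and at 73.1, 83.1 and 79.5 FPKM in siPOLR1F, with overlap (log2 fold change -0.10, SE 0.06; edgeR adjusted p = 0.293). IFI6, a small membrane protein that counters cell death, followed TRIM25 in the order of levels, with 9.64, 11.6 and 11.2 FPKM in NC and 9.08, 10.7 and 8.44 FPKM in siPOLR1F (log2 fold change -0.19, SE 0.13; edgeR adjusted p = 0.334). The median NC level of the tested members was 2.21 FPKM, against 4.72 FPKM for all genes tested. The IFIT genes thus did not lead the list by level: by NC level IFIT5 had rank 7, IFIT3 rank 10, IFIT1 rank 14 and IFIT2 rank 18 of the 37.

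The remaining tested members had log2 fold changes between -0.74 (SAMD9) and 0.60 (IFI27), and none of them passed. IFI35 was at 3.63, 3.94 and 3.90 FPKM in NC and at 2.86, 3.61 and 2.96 FPKM in siPOLR1F, with no overlap (log2 fold change -0.28, SE 0.13; edgeR adjusted p = 0.192). The exonuclease ISG20 (log2 fold change -0.05), IFI44 (-0.06) and the nuclear body protein SP110 (0.05) overlapped between the groups. Of the 27 tested members, 22 had a negative log2 fold change (81.5%, against 52.5% of all genes tested). Their median was -0.18, against -0.01 for all genes tested, and -0.14 for the 23 members outside the IFIT family. In 10 members (37.0%) all siPOLR1F libraries were below all NC libraries, against 19.0% of all genes tested, and in 0 members all were above, against 18.9%. The 10 were IFIT1, IFIT2, IFIT3, IFIT5, OAS3 and PARP9, which passed the test, and ISG15, HERC6, IRF1 and IFI35, which did not. The summed FPKM of all members but LGALS3BP was 94.6, 93.9 and 91.9 in NC and 81.7, 84.8 and 73.1 in siPOLR1F, and that of the IFIT genes alone was 14.2, 13.5 and 13.6 in NC and 8.29, 8.25 and 7.66 in siPOLR1F.

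**Figure D3:**
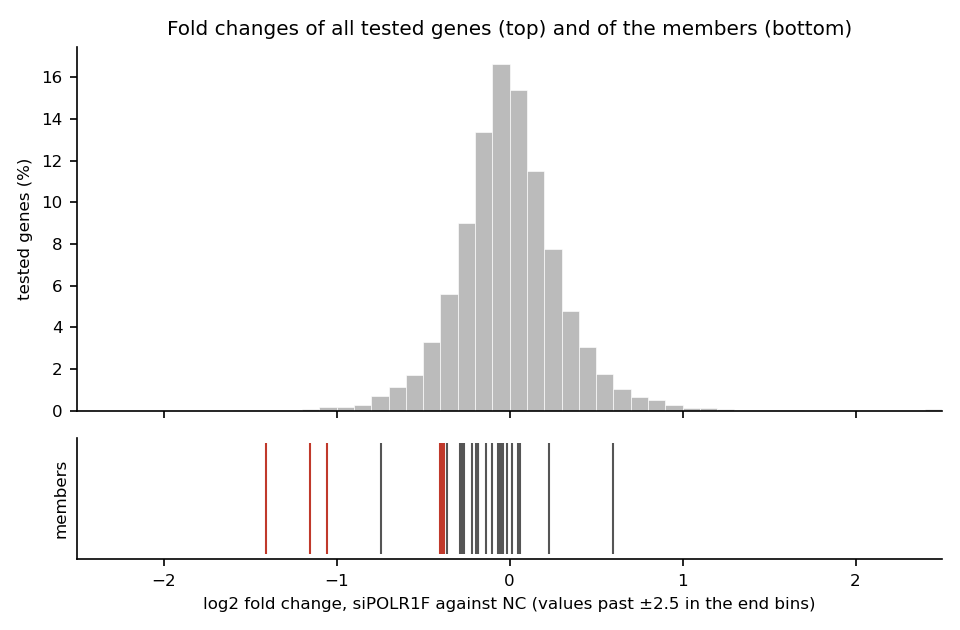
Share of all 13564 tested genes by log2 fold change (top, y axis in percent, bins of 0.1) and the 27 tested members as lines (bottom; red, called lower). Most members lie within the bulk of all genes, left of 0, and IFIT1, IFIT2 and IFIT3 stand apart at the left.

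Some members stood high in a single library. SAMD9, a restriction factor of poxviruses that acts on translation, was at 5.52 FPKM in NC replicate 1 and at 2.64 and 2.33 FPKM in NC replicates 2 and 3, against 2.64, 1.94 and 1.67 FPKM in siPOLR1F. Its log2 fold change was -0.74 (SE 0.32; edgeR adjusted p = 0.144) with all libraries, and -0.25 (adjusted p = 0.437) without NC replicate 1, with adjusted p between 0.0138 and 0.437 over all alternatives. By TMM-scaled CPM (counts scaled to library depth), NC replicate 1 exceeded every other library by more than 25% in SAMD9, SAMD9L, IFIT2, IFIH1 and DDX60, which is 5 of 37 members, 3 of them tested, against 2.86% of all genes tested. IFIH1, the RNA sensor MDA5, was at 1.11, 0.743 and 0.770 FPKM in NC and at 0.825, 0.789 and 0.760 FPKM in siPOLR1F. DDX60, a helicase linked to RNA sensing, had 819, 480 and 500 counts in NC and 475, 463 and 292 counts in siPOLR1F, and SAMD9L had 378, 222 and 168 counts in NC and 206, 164 and 133 counts in siPOLR1F. In IFIT2 and DDX60 all siPOLR1F libraries were also below all NC libraries by FPKM, and IFIT2 passed without NC replicate 1 as well (adjusted p = 0.0202; 2.40e-05 to 0.151 over all alternatives). This set was chosen after its values were seen.

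Other members were highest in NC replicate 2 and siPOLR1F replicates 1 and 2. In BST2 and IFI44L, NC replicate 1 was near NC replicate 2 (8.58 and 9.47 CPM for BST2, 1.64 and 1.84 CPM for IFI44L). MX1, a GTPase that blocks the replication of influenza and other viruses, had 104, 202 and 113 counts in NC and 183, 189 and 102 counts in siPOLR1F. IFI27 had 80, 227 and 103 counts in NC and 263, 253 and 110 counts in siPOLR1F, OAS2 was highest in the same 3 libraries, and IFI44L had 103, 112 and 91 counts in NC and 167, 142 and 40 counts in siPOLR1F. BST2, or tetherin, which holds budding virions at the cell surface, was at 6.95, 7.74 and 5.52 FPKM in NC and at 9.56, 9.30 and 4.70 FPKM in siPOLR1F. Of the tested genes of this set, BST2 did not pass (log2 fold change 0.23, SE 0.26; edgeR adjusted p = 0.582), nor did IFI27 (log2 fold change 0.60, SE 0.45; edgeR adjusted p = 0.392). Leaving out 1 library moved the log2 fold change of IFI27 between 0.31 (without NC replicate 1) and 1.20 (without NC replicate 2), and that of BST2 between 0.06 (without siPOLR1F replicate 1) and 0.49 (without siPOLR1F replicate 3). The set was chosen after its values were seen, and the share of all genes tested with this pattern is not given here.

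Endothelial markers moved with the same libraries. VWF, which encodes the von Willebrand factor of endothelial cells, had 12, 381 and 28 counts in NC and 446, 519 and 0 counts in siPOLR1F, and PECAM1 had 94, 304 and 69 counts in NC and 266, 331 and 79 counts in siPOLR1F. The 0 counts of VWF in siPOLR1F replicate 3 allow up to 3 counts, or 0.0477 CPM (counting error only). CDH5, the remaining marker of that list, was lower in siPOLR1F, with 2317 to 2484 counts in NC and 936 to 1493 counts in siPOLR1F (log2 fold change -1.04, SE 0.15; edgeR adjusted p = 0.00308), and so moved with the groups, as the 6 lower members did. Over the list of 3 markers the summed level was 5.62 to 6.75 FPKM in NC and 2.36 to 4.79 FPKM in siPOLR1F. The part of these markers in the values of MX1, IFI27, OAS2, IFI44L and BST2, and in those of the lower members, was not tested.

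Without NC replicate 2 and siPOLR1F replicates 1 and 2 together, which leaves 2 NC libraries and 1 siPOLR1F library, 1 of 27 members was lower (IFIT3, adjusted p = 0.0442) and 0 were higher, and 30 of all 13564 genes were lower. There the lone siPOLR1F library is assumed to vary like the NC libraries. The log2 fold changes in that fit were -1.30 for IFIT1, -1.24 for IFIT2, -0.50 for IFIT5, -0.33 for OAS3 and -0.39 for PARP9, and that of BST2 was -0.39 in place of 0.23.

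**Figure D4:**
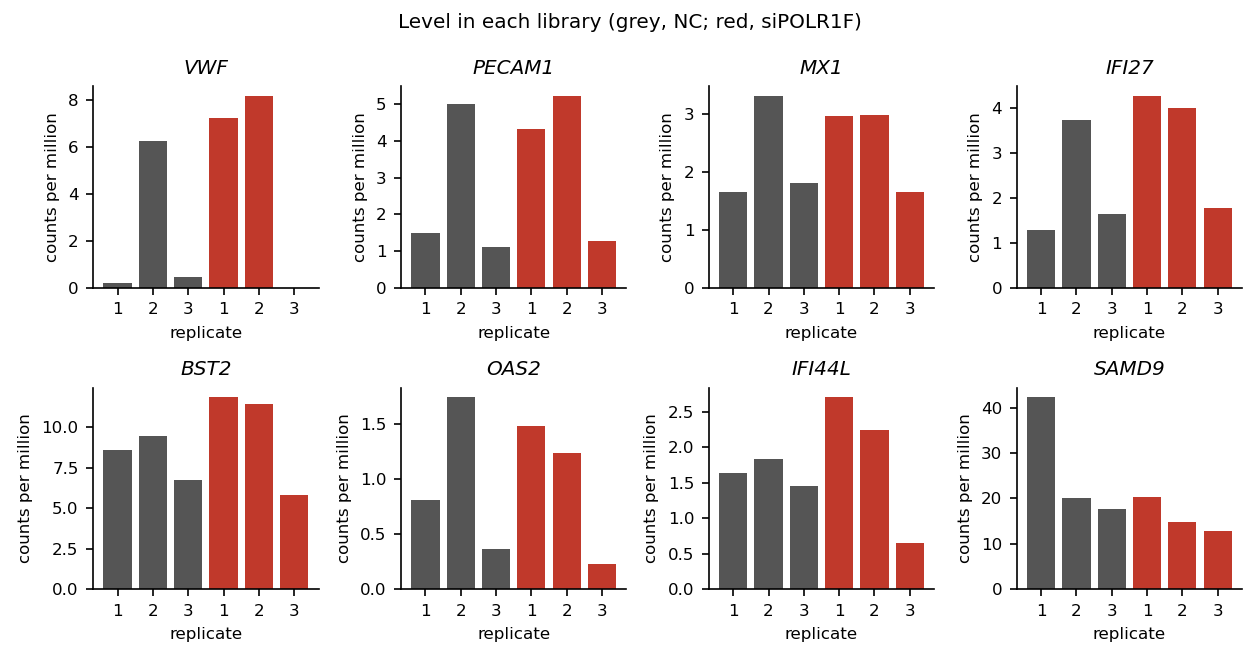
TMM-scaled CPM (y axis, from 0) in each library for the endothelial genes VWF and PECAM1 and for 6 members, with NC in grey and siPOLR1F in red. MX1, IFI27, BST2, OAS2 and IFI44L are highest in NC replicate 2 and siPOLR1F replicates 1 and 2, as VWF and PECAM1 are, and SAMD9 is highest in NC replicate 1.

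In all, 10 members with a row fell below the level for testing, and in a fit without a filter none of them passed. Beside those given above, MX2, a relative of MX1 in the nuclear pore, had 8, 12 and 14 counts in NC and 39, 27 and 0 counts in siPOLR1F. CMPK2, a mitochondrial nucleotide kinase, had 4 to 22 counts in NC and 0 to 18 counts in siPOLR1F, and XAF1, a protein that promotes cell death, had 0 to 45 and 0 to 7 counts. At these counts no difference was detectable.

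The promoter search covered 31 members with an entry of the RefSeq table. An ISRE core was found in 19 of these, against 3.65% of all 27305 promoters of the same length. Of the 24 tested members with an entry, 16 held the core. Of the 6 lower members, IFIT1, IFIT3, IFIT5 and OAS3 held it, PARP9 did not in the window searched, and IFIT2 was not in the table. Among 9628 tested genes with a promoter, 264 held the core, of which 6.82% were lower and 9.09% higher in siPOLR1F, against 7.49% and 11.7% of those without it. Tested members with the core that did not pass include ISG15, HERC5, IFI6, IFI44, BST2 and LGALS3BP. The GAS element, named for the interferon gamma response (TTC, any 3 bases and GAA, which reads the same on both strands), was found in 8 of 31 members and in 7.88% of all promoters, and in none of the lower members with an entry. ISRE core matches overlapped a GAS match in BST2 and IFI27, and overlapped each other in BST2, ISG15, HERC5 and IFIH1. A match is a description of the letters and was not tested for binding.

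The other genes of the interferon pathway were taken from 6 lists of 108 genes that are no members. Of 69 that could be tested, 6 were higher (8.70%) and 6 lower (8.70%), near the 10.3% and 6.94% of all genes tested, and their median log2 fold change was -0.07. Of 21 interferon ligand genes, 6 had a row and none reached the level for testing. IFNB1 had 1 count in siPOLR1F replicate 2 and 0 counts in the other libraries, IFNA1 had at most 4 counts, and IFNE, an interferon of epithelia, had 77, 30 and 36 counts in NC and 32, 62 and 32 counts in siPOLR1F.

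Of 9 receptor and signalling genes tested, 1 was lower and 0 were higher. IFNAR2, the chain of the type I interferon receptor that binds interferon most tightly, was at 1.48, 1.61 and 1.52 FPKM in NC and at 1.20, 1.22 and 1.10 FPKM in siPOLR1F. The groups did not overlap, and the log2 fold change was -0.38 (SE 0.08; edgeR adjusted p = 0.0141). It did not pass without siPOLR1F replicate 3 (adjusted p = 0.0632; 0.00145 to 0.208 over all alternatives), and a readthrough gene of the table overlaps it.

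Among 7 negative regulators tested, 2 were higher and 0 lower. SOCS3, an inhibitor of JAK kinases, was at 8.43, 7.58 and 7.34 FPKM in NC and at 10.7, 8.69 and 10.8 FPKM in siPOLR1F (log2 fold change 0.38, SE 0.11; edgeR adjusted p = 0.0416). This call ended when NC replicate 2 or 3 or siPOLR1F replicate 1 or 3 was left out (adjusted p from 0.0914 to 0.139; 0.00701 to 0.198 over all alternatives). PTPN11, the phosphatase SHP2, was at 10.8, 9.85 and 9.44 FPKM in NC and at 13.4, 12.0 and 12.6 FPKM in siPOLR1F (log2 fold change 0.34, SE 0.07; edgeR adjusted p = 0.0150). The call ended when NC replicate 3 or siPOLR1F replicate 1 or 3 was left out (adjusted p from 0.0513 to 0.0563; 1.80e-04 to 0.240 over all alternatives), and it overlaps RPL6, a gene with more counts.

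Of 12 genes of nucleic acid sensing tested, 1 was higher and 2 lower. TRAF3, an adaptor and ubiquitin ligase between the sensors and the kinase TBK1, was at 3.17, 3.16 and 3.21 FPKM in NC and at 5.67, 5.56 and 5.71 FPKM in siPOLR1F. The libraries of each group were nearly equal, and the log2 fold change was 0.83 (SE 0.06; edgeR adjusted p = 1.01e-04). TRAF3 passed under every alternative run. MAVS, the mitochondrial adaptor of the RNA sensors, and STING1, the adaptor of the DNA sensor cGAS, had log2 fold changes of -0.22 (SE 0.07; edgeR adjusted p = 0.0472) and -0.34 (SE 0.10; adjusted p = 0.0490). Leaving out NC replicate 1, 2 or 3 or siPOLR1F replicate 1 or 3 ended the call of MAVS (adjusted p of 0.0503 to 0.146, in a range of 0.0148 to 0.313 over all alternatives). Leaving out NC replicate 1 or 3 or siPOLR1F replicate 1 or 3 ended that of STING1 (0.0892 to 0.149, in a range of 0.00952 to 0.168).

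Among 26 other type I interferon-inducible genes tested, 2 were higher and 1 lower. LAP3, a leucine aminopeptidase, was at 12.1, 12.9 and 11.3 FPKM in NC and at 15.4, 15.5 and 15.2 FPKM in siPOLR1F (log2 fold change 0.35, SE 0.07; edgeR adjusted p = 0.0104), and passed without each library in turn. IFI16, a nuclear DNA sensor, was at 18.7, 14.2 and 14.6 FPKM in NC and at 22.8, 20.0 and 20.2 FPKM in siPOLR1F (log2 fold change 0.42, SE 0.11; edgeR adjusted p = 0.0348), and PML, the scaffold of nuclear bodies, at 4.53 ± 0.283 and 3.76 ± 0.159 FPKM (SD, n = 3 each; log2 fold change -0.26, SE 0.07; edgeR adjusted p = 0.0327). Both calls ended when any 1 library other than NC replicate 1 was left out (adjusted p from 0.0635 to 0.112 for IFI16 and 0.0675 to 0.106 for PML; over all alternatives 9.53e-04 to 0.398 and 0.00679 to 0.403).

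Of 19 genes of interferon gamma response and antigen presentation tested, 1 was higher and 2 lower. CD274, the immune checkpoint ligand PD-L1, was at 29.9, 36.3 and 33.5 FPKM in NC and at 43.6, 40.7 and 45.3 FPKM in siPOLR1F, with no overlap (log2 fold change 0.39, SE 0.08; edgeR adjusted p = 0.0119; 0.0503 without siPOLR1F replicate 3, and 3.88e-05 to 0.0904 over all alternatives). PSMB10, a subunit of the immunoproteasome, was at 5.85 ± 0.142 FPKM (NC) and 4.13 ± 0.387 FPKM (siPOLR1F; SD, n = 3 each; log2 fold change -0.49, SE 0.12; edgeR adjusted p = 0.0232). Leaving out NC replicate 2 or 3 or siPOLR1F replicate 1 or 3 ended this call (adjusted p of 0.0533 to 0.0837, in a range of 0.00289 to 0.242 over all alternatives). GBP3, a GTPase induced by interferon gamma, was at 3.47 ± 0.0543 and 2.78 ± 0.0243 FPKM (SD, n = 3 each; log2 fold change -0.31, SE 0.08; edgeR adjusted p = 0.0353) and did not pass without any 1 of the 6 libraries (0.0662 to 0.108; 0.0181 to 0.404 over all alternatives).

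**Figure D5:**
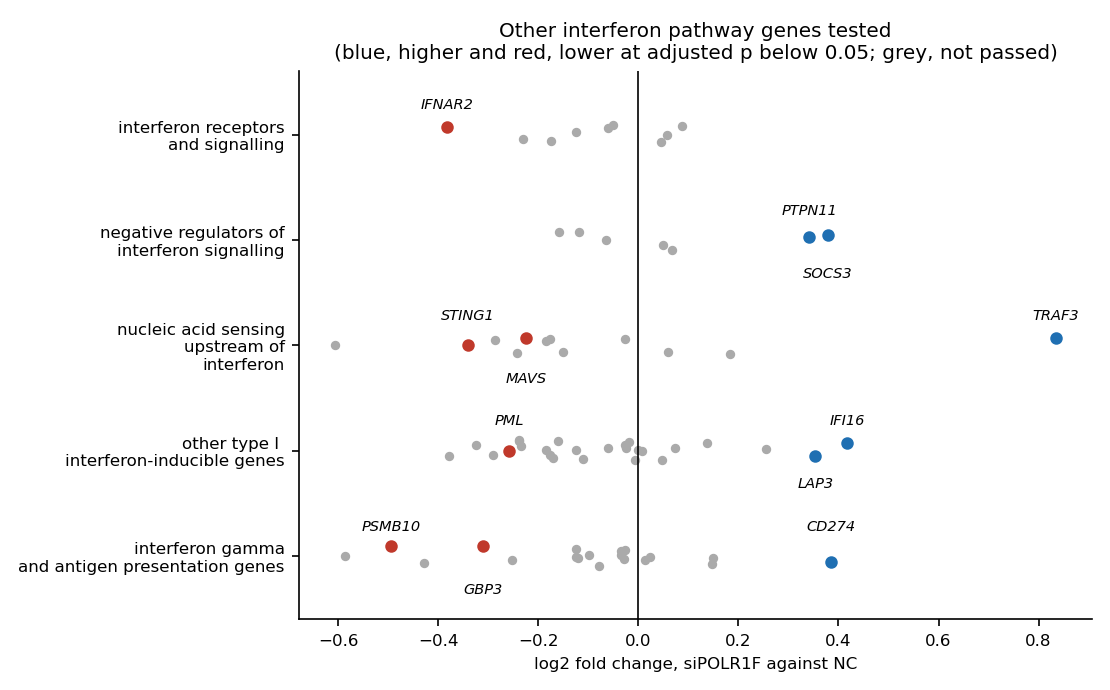
The log2 fold change (x axis, siPOLR1F against NC) of each tested pathway gene that is no member, by list. Called genes are named (blue, higher; red, lower), grey points did not pass, TRAF3 stands apart at 0.83, and no other point of these lists lies beyond 0.5 on the higher side.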

How the data were processed

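Poly(A) RNA of 6 libraries was sequenced as paired reads, per the labels' protocols. The submitters' processing notes name the tools fastp, HISAT2 and StringTie and the build GRCh38 (hg38), without versions. Neither the annotation nor the strand setting is stated there. The authors deposited 1 table, which holds for each gene a whole-number count and an FPKM in each library, and both were used as deposited. Grouping and numbering of replicates follow the labels.

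Counts were tested with edgeR 4.0.16 (R 4.3.3; quasi-likelihood test, two-sided, TMM scaling, no block). The test covered the 13564 genes whose mean FPKM reached 0.5. P-values were adjusted by Benjamini-Hochberg over all of these, with a threshold of 0.05. The SE was the log2 fold change divided by the square root of F. No 2 libraries of a group agreed within sampling noise (chi-square per degree of freedom from 20.4 to 43.8). The script was tested on simulated data, in which more of the calls were false than the threshold allows for and part of the smaller changes was missed. Alternatives were DESeq2 1.42.0, limma 3.58.1 on log2(FPKM + 1) and log2(FPKM + 0.1), other scalings and filters, the replicate block and leaving out each library; leaving out 3 libraries together was added after the data were seen. Exact permutation tests used scipy 1.17.1. Promoters came from RefSeq (GRCh38.p14).

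All members were described by role, with full values for those past the test and the 3 most abundant others. Of each pathway list, up to 4 genes past the test were named, or the 2 most abundant. The members, lists and tests were chosen with earlier results of these data known.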

Additional observations from a re-analysis of the deposited data

How the results depend on the processing

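The count of lower members was 6, and 4 to 7 over the other tools, scalings, filters, the replicate block and each library left out. That of higher members was 0 in all of these. With NC replicate 2 and siPOLR1F replicates 1 and 2 left out together, 1 member, 30 of all genes and 0 pathway genes were lower, and 84 of all genes and 1 pathway gene were higher. Leaving out 1 library gave 4 to 6 lower members, 423 to 841 lower and 730 to 1326 higher genes, and 0 to 4 lower and 2 to 6 higher pathway genes. The 942 lower and 1391 higher genes became 539 and 877 without NC replicate 3, 444 and 813 without siPOLR1F replicate 1, 517 and 898 without siPOLR1F replicate 2, and 423 and 730 without siPOLR1F replicate 3. Without a filter on low values, which tests more genes, 313 genes were lower and 663 higher, with 1 lower and 2 higher pathway genes. The 6 lower pathway genes became 11 with DESeq2, 2 with limma on log2(FPKM + 1) or log2(FPKM + 0.1), 2 at a mean of at least 0.1 FPKM and 10 at 1 FPKM, and the cause was not tested.

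Of members that did not pass, BST2 (-0.39), TRIM25 (0.0149) and IRF7 (-0.083) changed the sign of the log2 fold change with the 3 libraries left out together, and USP18 (0.0107) at a mean of at least 0.1 FPKM. Leaving out 1 library gave -0.14 to 0.042 for ISG20, -0.025 to 0.064 for HERC5, -0.17 to 0.11 for USP18, -0.24 to 0.072 for IFIH1, -0.0035 to 0.13 for IRF7, -0.20 to 0.024 for IFI44 and -0.0050 to 0.087 for SP110. Same-numbered libraries had correlated deviations of 0.293, 0.0157 and 0.274 for replicates 1, 2 and 3, and each library correlated best with its own number, a hint from the data and not the design. With the replicate block, 7 members were lower (SAMD9 in addition, log2 fold change -0.66, adjusted p = 0.0138), with 1125 lower and 1517 higher genes and 5 lower and 6 higher pathway genes. The block ended the calls of STING1 (adjusted p = 0.0552) and GBP3 (adjusted p = 0.0604) and changed no other call of a named gene.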
